A study of Mus musculus with 6 samples.

Results

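Transcription regulators of the ocular surface and lacrimal gland, 9 in number, were followed in E14.5 mouse lacrimal gland epithelium: the paired-box homeodomain factor Pax6, the Bar-type homeodomain factor Barx2, the Runt-domain factors Runx1, Runx2 and Runx3 with their shared partner Cbfb, and the AP-2 factors Tfap2a, Tfap2b and Tfap2c. They were taken by gene symbol, as 9 of the 23420 genes in the count tables, for their roles in these tissues. The lacrimal gland buds, cut out by laser capture, came from 3 control embryo samples of genotype Le-Cre and 3 Pea3 TKO samples, which carry Le-Cre together with the null genotype Pea3-/- and the conditional genotypes Ermfl/fl and Er81fl/fl, all on a mixed background. In Pea3 TKO the ETS factor gene Pea3 (Etv4) carries null alleles in every cell of the embryo, whereas Erm (Etv5) and Er81 (Etv1) are deleted where Cre is made. By these genotypes both groups carry the Le-Cre transgene, and neither lacks it. The transgene uses regulatory sequence of Pax6 itself to express Cre and a GFP reporter in the conjunctival epithelium and lacrimal gland. The controls are labelled Le-Cre alone, but their sample titles call them WT. The study names Le-Cre and triple heterozygous animals together as its controls. Nothing in the labels says whether each sample came from its own embryo, so p-values measure the spread between these samples, which may be technical. Pea3 TKO replicate 3 expressed Y-linked genes and replicates 1 and 2 did not, so the mutant samples cannot all be repeats of 1 embryo.

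The lacrimal gland forms as a bud from the conjunctival epithelium when FGF signals from the surrounding mesenchyme reach it. Pax6 is the master regulator of eye development and stays active in the corneal, conjunctival and lacrimal epithelium. Barx2 controls cell adhesion and matrix remodelling during branching of the lacrimal gland. Runx proteins bind DNA through the Runt domain, as heterodimers with Cbfb, which binds no DNA by itself. AP-2 proteins bind GC-rich palindromes as dimers and act in surface ectoderm, neural crest and epidermal keratinocytes.

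The sequences shown here are stretches around recognition motifs in the promoters of these genes, because the Pea3 factors removed from the mutant, the Runx proteins and the AP-2 proteins each have a known DNA motif. RefSeq promoters on GRCm38.p6, 250 bases before to 50 bases after an annotated start, were given for 7 of the 9 genes, 11 promoters in all. Barx2 and Tfap2c had none. Both strands were searched for AGGAAG, the PEA3-type ETS motif, for CCGGAAG, a general ETS motif, for TGTGGT, the Runx motif, and for the AP-2 palindrome GCCNNNGGC. AGGAAG was present in 6 of the 11 promoters, from 5 genes, and in 35.4% of all 32817 mouse promoters. CCGGAAG was in none of the 11 and in 8.86% of all. TGTGGT was in 3 of the 11, against 16.8% of all, and these 3 belong to Runx1, Runx2 and Runx3. GCCNNNGGC was in 2, of Pax6 and Runx1, against 16.6% of all. In the stretches below, printed along the strand of each gene, capitals mark ACCACA, the reverse complement of the Runx motif, which stands 2 times in each at the same spacing. Those of Runx1 and Runx2 lie just downstream of an annotated start and that of Runx3 lies upstream of its start.
Runx1, chr16:92826025-92826054, minus strand: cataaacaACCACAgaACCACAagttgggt
Runx2, chr17:44814583-44814612, minus strand: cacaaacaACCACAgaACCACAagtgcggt
Runx3, chr4:135120503-135120532, plus strand: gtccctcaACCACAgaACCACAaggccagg
The 3 stretches share the 18-base run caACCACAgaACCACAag. Chosen after the sequences had been seen, the paired motif within it was present in 4 of the 32817 promoters (0.0122%), those of Runx1, Runx2, Runx3 and the predicted gene Gm16225. Capitals mark AGGAAG in the following stretches, which belong to promoters of 3 genes whose transcripts differed between the groups.
Runx1, chr16:92826181-92826210, minus strand: caggtggagggcAGGAAGggcatagctcag
Runx2, chr17:44814836-44814865, minus strand: taaagagacagaAGGAAGgaaagggagagg
Tfap2b, chr1:19212074-19212103, plus strand: ggcaagcggagggAGGAAGgggcgcctgag
The other promoters with AGGAAG were those of Cbfb and Tfap2a, and neither Pax6 promoter held it. A match describes the letters only. Binding of any factor at these positions was not analysed here.

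The libraries held 14194775 to 17860140 counts each, so that 3 counts corresponded to 0.168 to 0.211 CPM, counts scaled to a library of fixed size. Levels are given as CPM after TMM scaling, and differences as the log2 fold change of Pea3 TKO over control from the edgeR quasi-likelihood test with Benjamini-Hochberg adjustment over 13087 tested genes. Transcripts of the targeted genes fell in the mutant, Etv4 from 151 ± 29.1 to 19.5 ± 8.79 CPM, Etv5 from 1058 ± 127 to 139 ± 45.8 CPM and Etv1 from 31.8 ± 2.79 to 9.52 ± 0.41 CPM (SD, n = 3). Etv4 transcript remained at 10.9, 19.1 and 28.4 CPM in Pea3 TKO replicates 1 to 3, and the files do not show which part of the gene these reads cover. All 6 epithelium markers were expressed in every library. The adhesion gene Epcam lay between 1201 and 1500 CPM and did not pass the test, and the other 5 rose in the mutant, or 4 with the Y-linked covariate described next. Single libraries stood apart in sex and in conjunctival transcripts. Y-linked genes were expressed in all 3 controls and in Pea3 TKO replicate 3, whereas Pea3 TKO replicates 1 and 2 lacked them and expressed Xist, so that embryo sex differs in part with genotype. Control replicate 1 held more conjunctival keratin than the other controls, with Krt15 at 719.9 CPM against 138 and 63.1 CPM. Calls of the factors and counts of related genes are therefore also given with Y-linked expression as a covariate. All controls expressed Y-linked genes, so in that fit the group difference rests mainly on Pea3 TKO replicate 3. It is thus a limited adjustment for sex and not an independent comparison of all 6 libraries.

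Of the 8 tested factors 5 passed an adjusted p of 0.05 in edgeR, beside 25% of all tested genes. Transcripts of Pax6, Runx1 and Runx2 rose in Pea3 TKO and those of Tfap2b and Tfap2c fell, beside 13.6% of tested genes that rose and 11.3% that fell. Cbfb, Barx2 and Tfap2a did not pass, and Runx3 had too few counts to be tested. In 7 of the 8 the CPM ranges of the groups did not overlap, 3 with higher and 4 with lower values in the mutant, beside 43.9% of all tested genes in either direction, 22.5% higher and 21.3% lower. The median absolute log2 fold change was 0.49 over the 8 factors and 0.38 over all tested genes. Only Pax6 and Tfap2b kept their calls in all 6 fits that left out 1 library each. They also kept them with Y-linked expression as a covariate, where no other factor passed. That fit rests mainly on Pea3 TKO replicate 3 as the mutant with Y-linked expression. With that covariate 855 of the 13087 tested genes were called, against 3268 without it. Without Control replicate 1, 4 factors were called, beside 3344 of 13376 tested genes.

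**Figure D1:**
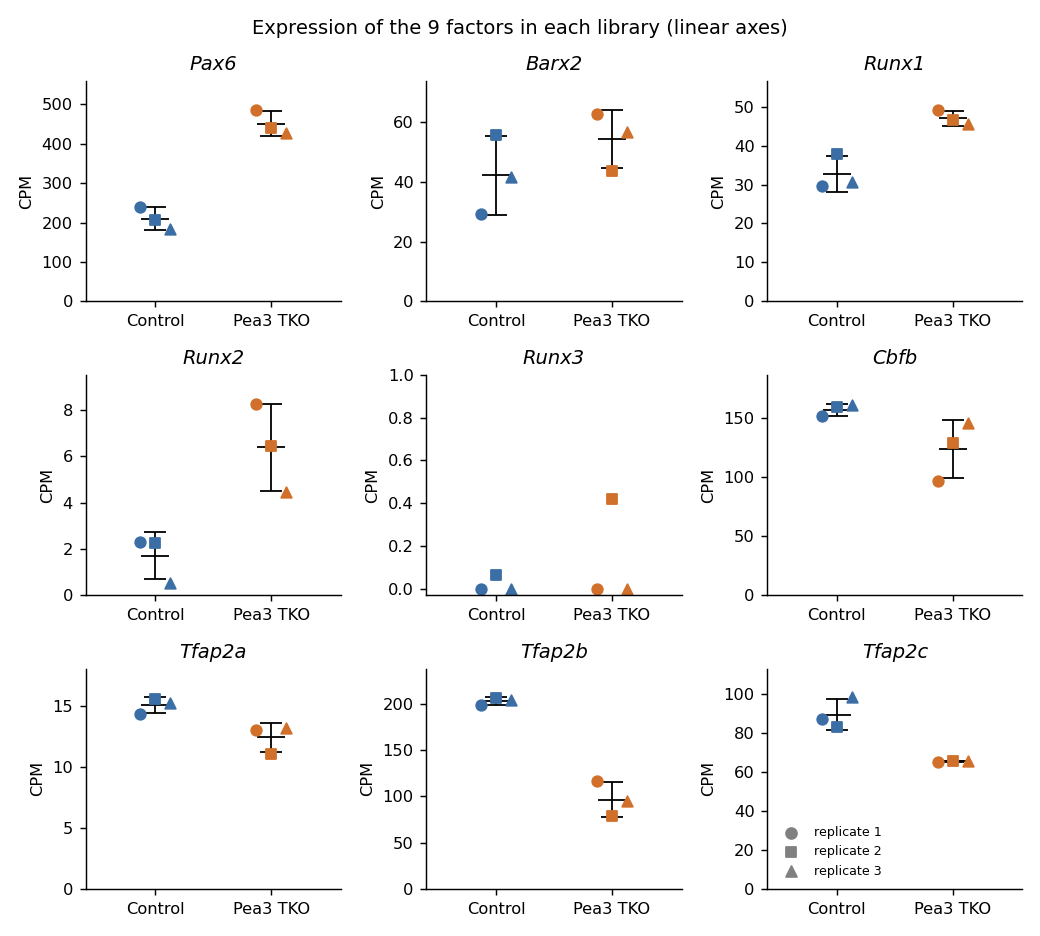
TMM-scaled CPM of each of the 9 factors in the 3 control (blue) and 3 Pea3 TKO (orange) libraries on linear axes that start at 0, except that the Runx3 axis starts slightly below 0 so that libraries at 0 can be seen. Symbols are replicates, and the long and short horizontal lines are the mean and the SD of n = 3, left out for Runx3. The groups are apart for every factor but Barx2 and Runx3.

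**Figure D2:**
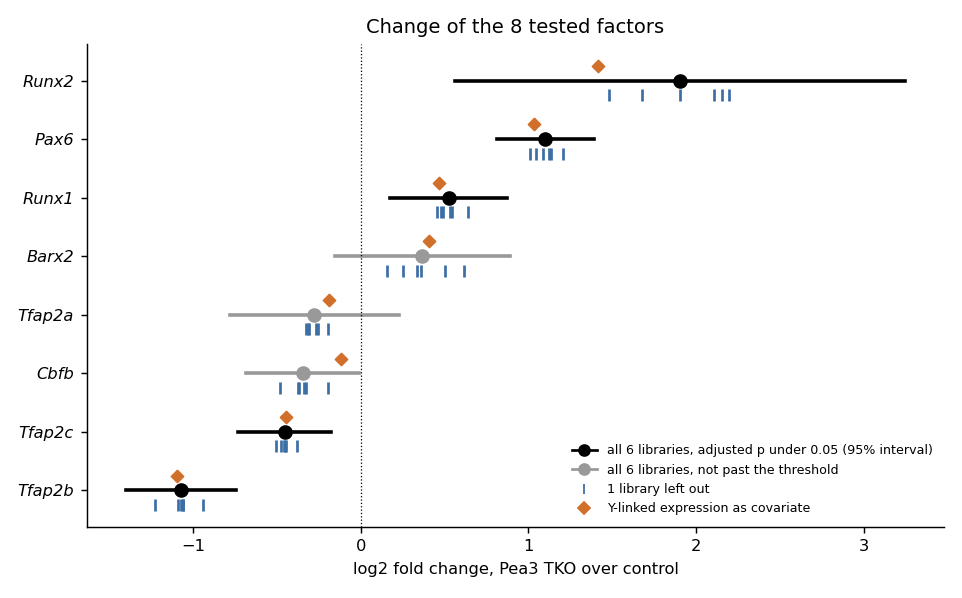
Log2 fold change of Pea3 TKO over control for the 8 tested factors, with its 95% interval, black where the edgeR adjusted p was under 0.05 and grey otherwise. Blue ticks are the fits that leave out 1 library, and orange diamonds the fit with Y-linked expression as a covariate. The values for Pax6 stay between 1.01 and 1.21 and those for Tfap2b between -1.23 and -0.94 when a library is left out.

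Pax6 (chr2:105668900-105697364, GRCm38, plus strand) had the clearest increase. Its level was 240.5, 206 and 184 CPM in control replicates 1 to 3 and 486, 439 and 427 CPM in Pea3 TKO replicates 1 to 3. Every mutant library thus lay above every control library, and the means of 210 ± 28.7 and 451 ± 31.5 CPM (SD, n = 3) stood 2.15-fold apart, with a 95% interval of 1.76 to 2.62. The log2 fold change was 1.10 (SE 0.13, edgeR adjusted p = 0.000502), higher than that of 88.3% of tested genes. With Y-linked expression as a covariate it was 1.03 (adjusted p = 0.0106). Control replicate 1, the library rich in conjunctival keratin, had the highest Pax6 level of the controls, and without it the log2 fold change was 1.21 (adjusted p = 0.000204). By their genotypes both groups carry the Pax6-driven transgene, and its part in the Pax6 values was not tested.

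Barx2 (chr9:31846044-31913462, minus strand) measured 29.3, 55.6 and 41.7 CPM in the controls and 62.8, 43.7 and 56.7 CPM in Pea3 TKO. The groups overlapped, since Pea3 TKO replicate 2 lay below Control replicate 2. Its log2 fold change of 0.37 (SE 0.23) had a 95% interval of -0.16 to 0.89 and did not pass the test (edgeR adjusted p = 0.286). Control replicate 2 also held the most lens crystallin transcript, its summed lens markers reaching 813 CPM against 128 to 241 CPM in the other libraries. Without that library the log2 fold change of Barx2 was 0.62 (adjusted p = 0.105), and the part of lens tissue in it was not tested.

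The near relatives of both homeodomain factors were almost silent. None of the 11 genes Pax1 to Pax9 other than Pax6, Barx1, Barhl1 and Barhl2 was tested, 7 had no count in any library and 9 stayed under 1 CPM throughout. Barx1, which patterns the stomach and teeth, was measured at 0.52 to 1.58 CPM in the controls and 0 to 1.12 CPM in the mutant. Of 17 eye and lens regulators that act around Pax6, 8 were tested. Of these 2 rose and none fell, beside 13.6% and 11.3% of all tested genes, and with the Y-linked covariate 1 rose. The 2 that rose were Meis1 and Maf. Meis1, a TALE homeodomain factor that controls the Pax6 lens enhancer, went from 242 ± 21.8 to 353 ± 30.1 CPM (log2 fold change 0.54). Maf, an activator of crystallin genes, went from 6.89 ± 2.14 to 22.1 ± 4.72 CPM (1.68). The retinal determinants Rax, Six6 and Otx2 had no count in any library.

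Among 14 genes of corneal and conjunctival epithelium, the tissues where Pax6 remains active, 11 rose in Pea3 TKO and none fell. Of all tested genes 13.6% rose and 11.3% fell. The median log2 fold change of the 14 genes was 3.35, beside 0.0094 over all tested genes. Krt12, the keratin of the corneal epithelium and a known target of Pax6, was at 0, 0.062 and 0 CPM in the controls and 2.60, 5.03 and 5.64 CPM in the mutant. Aldh3a1, the corneal aldehyde dehydrogenase, was at 0.34, 0 and 0.13 CPM against 3.37, 19.9 and 25.4 CPM. Aldh1a1, the other aldehyde dehydrogenase of the cornea, went from 6.64 ± 4.45 to 63.8 ± 20.1 CPM and the secreted chaperone gene Clu from 39.6 ± 18.9 to 529 ± 211 CPM. With the Y-linked covariate 5 of the 14 rose, and without Control replicate 1 again 11. Tkt, Klf4 and Trp63 did not pass the test, with log2 fold changes of -0.27, 0.78 and -0.04. The summed level of the list was 1825, 816 and 770 CPM in control replicates 1 to 3 and 7692, 5800 and 4595 CPM in the mutant. In these bulk samples a change in the share of conjunctival cells and a change in RNA per cell cannot be told apart, and this holds for each transcript described here.

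Genes tied to Barx2 in adhesion, matrix remodelling and muscle moved in both directions. Of the 8 tested 3 rose and 3 fell, beside 13.6% and 11.3% of all tested genes. With the Y-linked covariate 2 rose and 2 fell. Col2a1, the collagen of cartilage and of the lacrimal bud, fell from 1122 ± 121 to 27.6 ± 4.11 CPM (log2 fold change -5.34). Mmp2, the matrix metalloproteinase known as a Barx2 target, fell from 356 ± 43.0 to 126 ± 18.4 CPM (-1.50). Mmp9, a second gelatinase, was at 0.79, 0 and 0.39 CPM in the controls and 8.00, 28.2 and 29.8 CPM in the mutant, and Acta2, smooth muscle actin, went from 5.51 ± 2.04 to 43.7 ± 12.9 CPM (2.98). The study also reports the falls of Col2a1 and Mmp2 and describes both genes as regulated by Sox9. It reports Erm bound at both loci in postnatal lacrimal gland cells, a later stage than these E14.5 buds. The caption of its supplementary figure names Mmp3 where its text names Mmp2. Barx2 itself had no detected difference beside the genes of this list.

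Runx1 (chr16:92601466-92826149, minus strand) was the main Runx gene of the bud, measured at 29.6, 38.0 and 30.7 CPM in the controls and 49.2, 46.5 and 45.5 CPM in Pea3 TKO. All mutant libraries lay above all control libraries. Its log2 fold change was 0.52 (SE 0.16, 95% interval 0.18 to 0.87, edgeR adjusted p = 0.035), a 1.44-fold difference. The call was held in 1 of the 6 fits without a library, where the log2 fold change ran from 0.45 to 0.64, and was lost with Y-linked expression as a covariate (0.47, adjusted p = 0.273). Runx1 is also known from blood cells. The 7 blood and macrophage markers in the tables summed to 102, 37.3 and 38.3 CPM in the controls and 56.3, 52.4 and 206 CPM in the mutant. Most of this was embryonic haemoglobin Hbb-y, and Ptprc, which marks white blood cells, was at most 0.52 CPM. The macrophage genes Csf1r, at 11, 0 and 7.41 CPM against 4.13, 0.70 and 0 CPM, and Cd68, at 2.20, 0.062 and 1.89 CPM against 6.92, 0.91 and 1.64 CPM, were present in some libraries. None of the 3 tested markers passed, or 1 with the Y-linked covariate, and the part of blood cells in the Runx1 values was not tested.

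Runx2 (chr17:44495987-44814797, minus strand), known as the regulator of osteoblasts, was far lower, with counts of 41, 36 and 8 in the controls and 130, 92 and 76 in Pea3 TKO. These correspond to 2.31, 2.24 and 0.52 CPM and to 8.26, 6.43 and 4.46 CPM, again without overlap. The log2 fold change of 1.91 (SE 0.60) had a wide 95% interval of 0.56 to 3.25 and passed the test (edgeR adjusted p = 0.0435). It passed in 1 of the 6 fits without a library, over a range of 1.48 to 2.19, and not with the Y-linked covariate (1.42, adjusted p = 0.359).

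Markers of mesenchyme and bone were set beside Runx2, since both tissues can express it. The 12 mesenchyme markers summed to 21.9, 33.9 and 137 CPM in the controls and 421, 587 and 15.4 CPM in the mutant. Of the 11 tested 2 rose, Lum and Dcn, beside 13.6% of all tested genes. With the Y-linked covariate none rose and the median log2 fold change of the list went from 2.31 to -1.45, and without Control replicate 1 a single marker rose. The summed level was lowest in Pea3 TKO replicate 3, where Runx2 was at 4.46 CPM. The part of mesenchyme in the Runx2 values was not tested. The osteoblast markers Sp7 and Ibsp had no count in any library, and the osteoblast and cartilage list summed to 42.1 to 62.3 CPM in the controls and 62.0 to 94.3 CPM in the mutant, with no gene past the test. With only the 4 libraries that expressed Y-linked genes, which leave Pea3 TKO replicate 3 as the single mutant, the Runx2 log2 fold change was 1.41 (adjusted p = 0.449).

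Runx3, known from T cells, sensory neurons and the stomach, had 0, 1 and 0 counts in the controls and 0, 6 and 0 counts in the mutant. Only Pea3 TKO replicate 2 exceeded 3 counts, and Runx3 was not detectable in 4 of the 6 libraries at this depth. Together the Runx genes covered a wide span of levels, with Runx1 measured far above Runx2 in every library.

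Cbfb (chr8:105170674-105217989, plus strand), the partner of all Runx proteins, was measured at 151, 159 and 161 CPM in the controls and 96.5, 128 and 145 CPM in Pea3 TKO. Each mutant library lay below each control library, Pea3 TKO replicate 1 by the most. A log2 fold change of -0.34 (SE 0.15, 95% interval -0.68 to -0.0073) did not pass after adjustment (edgeR adjusted p = 0.125). Without Pea3 TKO replicate 1 it was -0.20, and with the Y-linked covariate -0.12 (adjusted p = 0.786).

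Of the 11 tested cofactors of the Runx complex 1 rose and 1 fell, beside 13.6% and 11.3% of all tested genes. Their median log2 fold change was 0.01. None passed with the Y-linked covariate, where 855 of 13087 tested genes were called. The cofactors that rose and fell both belong to the Groucho family of corepressors, which Runx proteins recruit. Tle4 rose from 102 ± 12 to 153 ± 12.4 CPM (log2 fold change 0.58) and Tle3 fell from 32.2 ± 17.4 to 9.72 ± 3.16 CPM (-1.73). For Tle3 the controls spread widely, at 49.0, 14.2 and 33.4 CPM, and the mutant libraries reached up to 12.2 CPM. The acetyltransferase genes Ep300 and Crebbp had log2 fold changes of 0.05 and 0.14 and did not pass.

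Tfap2b (chr1:19208914-19238576, plus strand) had the clearest decrease of the 9 genes. Its level was nearly equal among controls, at 198, 206 and 205 CPM, and was 117, 78.5 and 94.8 CPM in Pea3 TKO. No library overlapped, and the means of 203 ± 4.13 and 96.6 ± 19.1 CPM (SD, n = 3) differed by a factor of 2.10. The log2 fold change was -1.07 (SE 0.15, 95% interval -1.40 to -0.74, edgeR adjusted p = 0.00106), and 5.04% of tested genes had a lower one. With the Y-linked covariate it was -1.10 (adjusted p = 0.027), and among the 4 libraries with Y-linked expression it was -1.09 (adjusted p = 0.0145). Tfap2b is known for roles in neural crest, kidney and the front of the eye.

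Tfap2c (chr2:172549593-172558622, plus strand), which acts in trophoblast, germ cells and epidermis, measured 87.2, 83.2 and 98.4 CPM in the controls and 65.2, 65.5 and 65.9 CPM in Pea3 TKO. The groups were apart, and the mutant libraries were close to identical. The log2 fold change of -0.45 (SE 0.12, 95% interval -0.73 to -0.17) passed the test (edgeR adjusted p = 0.0258). The call was held in 1 of the 6 fits without a library, where the value ran from -0.50 to -0.38, and not with the Y-linked covariate (-0.44, adjusted p = 0.217).

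Tfap2a (chr13:40715302-40738376, minus strand), the AP-2 gene needed for closure of the face and for lens formation, was low at 14.3, 15.6 and 15.3 CPM in the controls and 13, 11 and 13.2 CPM in the mutant. All mutant values lay below all control values by a small margin. Its difference on the log2 scale was -0.28 (SE 0.23) with a 95% interval of -0.78 to 0.23, and the test was not passed (edgeR adjusted p = 0.41). The annotated exons of Tfap2a, Runx1 and Runx2 overlap antisense genes on the other strand. The overlaps with single antisense genes cover 265, 380 and 73 bases for Tfap2a, 106 for Runx1 and 519 for Runx2. No such antisense gene was listed in the count tables, and whether counting used the strand is not given in the sources used here.

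The remaining AP-2 genes were silent, Tfap2e with no count in any library and Tfap2d with at most 0.06 CPM. Of the 6 tested relatives and cofactors 1 rose and 2 fell, beside 13.6% and 11.3% of all tested genes. With the Y-linked covariate 1 fell. Kctd1, a repressor that binds AP-2 proteins, fell from 47.7 ± 3.02 to 23.0 ± 2.52 CPM (log2 fold change -1.05, edgeR adjusted p = 0.00177). The coactivator genes Cited2 and Cited4 moved in opposite directions, Cited2 rising from 14.2 ± 6.18 to 43.2 ± 14.47 CPM (1.597) and Cited4 falling from 60.5 ± 2.89 to 24.2 ± 10.9 CPM (-1.32). Kctd15, a close relative of Kctd1, had a log2 fold change of -0.32 and did not pass.

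Genes known as AP-2 targets or linked to AP-2 in epithelia rose more often than they fell. Of the 10 tested 6 rose and 2 fell, beside 13.6% and 11.3% of all tested genes. Their median log2 fold change was 1.10, and with the Y-linked covariate 5 rose and 3 fell. The basal keratin gene Krt14 went from 88.2 ± 13.7 to 610 ± 160 CPM (log2 fold change 2.79), the E-cadherin gene Cdh1 from 499 ± 63.2 to 1066 ± 38.3 CPM (1.09), and the receptor kinase genes Erbb2 and Egfr from 270 ± 26.4 to 601 ± 33.8 CPM (1.16) and from 46.8 ± 5.11 to 119 ± 22.1 CPM (1.34). The 2 that fell, named after their values were seen, were the receptor gene Erbb3 (-1.24) and the adhesion gene Mcam (-1.0). Krt14 and Krt5 are also epidermis markers, and Cdh1 is an epithelial marker. The 8 epidermis markers summed to 284 to 746 CPM in the controls and 2854 to 3058 CPM in the mutant, and 7 of the 7 tested rose, 5 with the Y-linked covariate and 6 of 8 without Control replicate 1. The 8 markers of the lacrimal bud, among them Etv4 and Etv5 themselves, summed to 4049 to 4529 CPM against 563 to 721 CPM, and all 8 fell, or 7 with the Y-linked covariate. The part of these shifts in the AP-2, Runx and Pax6 values was not tested.

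**Figure D3:**
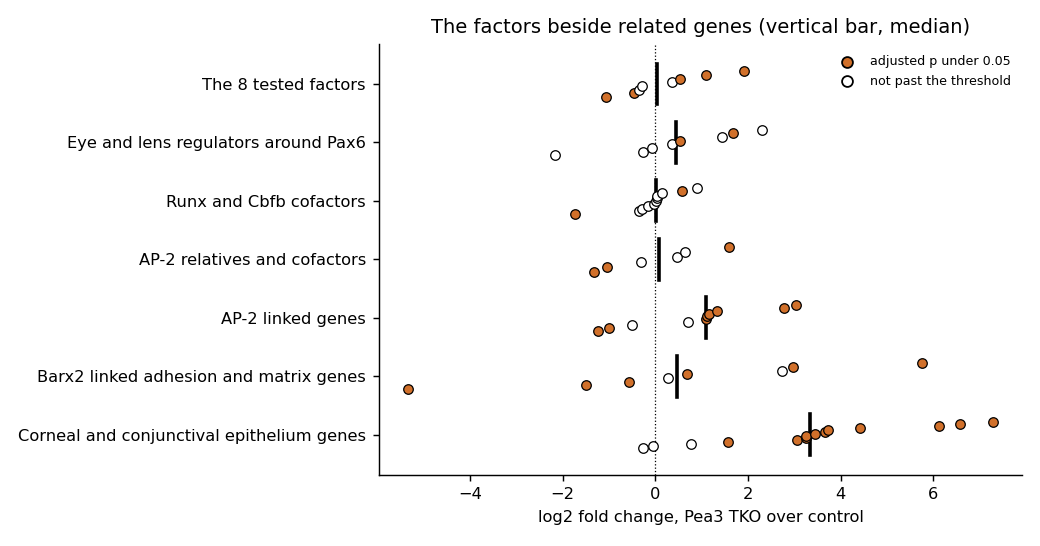
Log2 fold change of Pea3 TKO over control for the 8 tested factors and for the tested genes of the 6 related lists, 1 point per gene, filled where the edgeR adjusted p was under 0.05. The vertical bars are medians, at 0.05 for the factors, 1.10 for AP-2 linked genes and 3.35 for corneal and conjunctival genes.

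Levels of different genes were compared after division by the length of their annotated exons, as CPM per kb. In the controls the order was Cbfb (45.1 ± 1.46), Tfap2b (32.1 ± 0.65), Tfap2c (24.4 ± 2.15), Barx2 (21.4 ± 6.71), Pax6 (17.96 ± 2.45), Tfap2a (3.07 ± 0.13), Runx1 (2.72 ± 0.38) and Runx2 (0.19 ± 0.11), with Runx3 at or near 0. The ranges of Tfap2c and Barx2, of Barx2 and Pax6, and of Tfap2a and Runx1 overlapped, so the order within these pairs was not resolved by this length. In Pea3 TKO Pax6 came first at 38.5 ± 2.69 CPM per kb, followed by Cbfb (35.5 ± 7.14), Barx2 (27.6 ± 4.96), Tfap2c (17.8 ± 0.10), Tfap2b (15.2 ± 3.02), Runx1 (3.92 ± 0.16), Tfap2a (2.53 ± 0.24) and Runx2 (0.72 ± 0.21). The ranges of Pax6 and Cbfb, of Cbfb and Barx2, and of Tfap2c and Tfap2b overlapped there. Divided instead by the longest coding transcript, a choice added after the data were seen, Pax6 stood second in the controls at 47.4 CPM per kb and first in the mutant at 102 CPM per kb. By that length Runx1 (5.59 ± 0.77) lay above Tfap2a (4.32 ± 0.19) and Pax6 above Barx2 in the controls, without overlap. The order of these genes thus depends on the length used.

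Within each family the composition differed between the groups. Runx1 made up 90.4, 92.2 and 97.7% of the summed Runx level per kb in the controls and 81.4, 82.6 and 88.2% in the mutant, while the Runx2 share was 9.61, 7.42 and 2.25% against 18.6, 15.6 and 11.8%. Runx1 thus remained the larger part in every library while the summed level went from 2.92 ± 0.44 to 4.67 ± 0.37 CPM per kb. In the AP-2 family the Tfap2b share was 54.0, 55.8 and 51.9% in the controls and 47.5, 38.2 and 42.1% in the mutant. Tfap2c was at 40.9, 38.8 and 43.0% against 45.7, 54.9 and 50.4%. By this length Tfap2c exceeded Tfap2b in Pea3 TKO replicates 2 and 3 but in no control. Divided by the longest coding transcript, Tfap2c also exceeded Tfap2b in Pea3 TKO replicate 1, at 48.0 against 43.8%. In counts not divided by length, Tfap2b stayed above Tfap2c in every library, at 50.6 against 42.3% in Pea3 TKO replicate 2. The summed AP-2 level went from 59.5 ± 2.33 to 35.6 ± 3.16 CPM per kb.

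**Figure D4:**
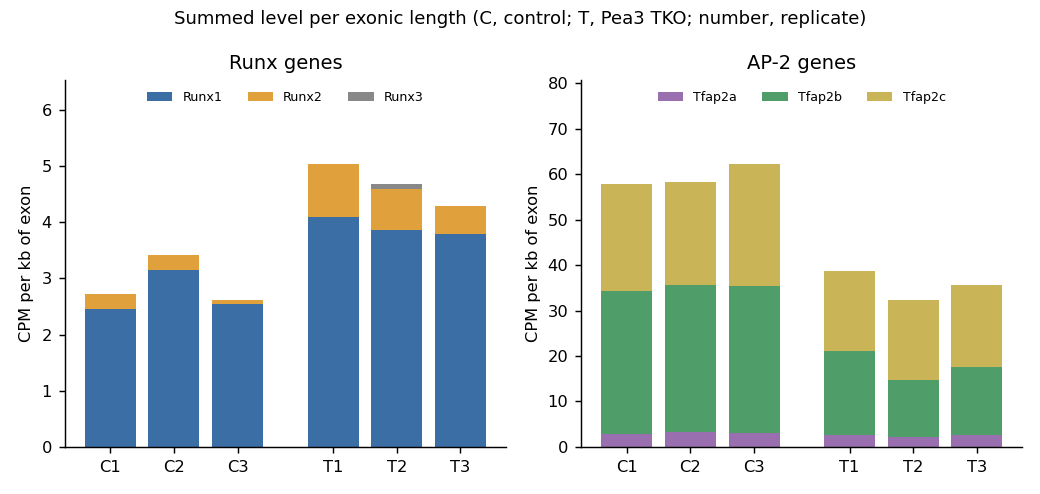
Stacked bars of the level per kb of exon (CPM per kb, linear axis from 0) of the Runx genes (left) and the AP-2 genes (right) in each of the 6 libraries, C for control and T for Pea3 TKO. The Runx sums are 2.61 to 3.42 in the controls and 4.29 to 5.03 in the mutant, and the AP-2 sums are 57.9 to 62.2 and 32.4 to 38.8.

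Ratios between genes of the same library, which do not depend on scaling between libraries, were compared for 7 pairs by an exact two-sided permutation test, in which 3 against 3 cannot give a p under 0.1. The ratio of Runx1 to Runx2 per kb was 9.31, 12.3 and 40.9 in the controls and 4.37, 5.29 and 7.45 in the mutant, where every value was lower (mean log2 difference -1.59, exact permutation p = 0.1, adjusted over 7 ratios p = 0.175). That of Tfap2b to Tfap2a was 10.7, 10.2 and 10.3 against 6.91, 5.48 and 5.54 (-0.81), and that of Tfap2b to Tfap2c was 1.32, 1.44 and 1.21 against 1.04, 0.695 and 0.835 (-0.64), both with the same exact permutation p of 0.1 and adjusted p of 0.175. The summed Runx level relative to Cbfb was 0.063, 0.0754 and 0.0568 in the controls and 0.182, 0.127 and 0.103 in the mutant, higher by 1.05 on the log2 scale with the same p values. The ratio of Tfap2c to Tfap2a (-0.17, exact permutation p = 0.2), of Barx2 to Pax6 (-0.71, exact permutation p = 0.3) and of Runx1 to Runx3 (exact permutation p = 1) had overlapping groups. With 3 libraries per group no ratio could pass a threshold of 0.05.

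The genes most like each called factor were taken by Pearson's r of log2(CPM + 1) over the 6 libraries, among 9726 other tested genes with a mean of at least 10 CPM. For Pax6 they were Nxn (r = 0.999), Bspry (0.998) and Zfp536 (0.998). For Tfap2b they were Fgf1 (0.999), Fermt1 (0.996) and Sox6 (0.995), and for Tfap2c Evc (0.995), Tia1 (0.994) and Chst3 (0.991). For Runx1 they were Slc27a4 (0.995), Hebp1 (0.995) and Ap2s1 (0.994), and for Runx2, among 9727 genes, Pkp2 (0.999) and Osr2 (0.996). These correlations describe 6 points that fall into 2 groups. All the genes named differed between the groups in the same direction as their factor, which follows from choosing them by the highest r.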

How the data were processed

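RNA from laser-captured E14.5 lacrimal gland epithelium, frozen in embedding medium, was amplified with the Ovation RNA-seq System V2 and sequenced. The authors deposited raw read counts by gene symbol in a separate table for each sample, not normalized. The submitters' processing notes name bcl2fastq 2.17, STAR 2.5.2b, featureCounts 1.5.0-p3, DESeq and mm10. Their options, the annotation and the strand setting are not given in the sources used here. Amplified reads carry no molecular identifiers, so counting error understates the error of low counts.

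Genes were kept by filterByExpr of edgeR 4.0.16 (R 4.3.3), which left 13087 of 23420. After TMM scaling the groups were compared with the 2-sided quasi-likelihood test of edgeR (glmQLFit, glmQLFTest) in a model of genotype alone, and p-values were adjusted by Benjamini-Hochberg over all tested genes. SE was taken as the size of the log2 fold change over the root of F. Ratios within a library used 0.5 added counts and an exact permutation test. Lengths and positions come from GENCODE M21 (GRCm38), promoters from RefSeq. Chi-square tests of counts between libraries of the same group found none deposited more than once. Libraries of different groups were not compared in this way.

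The text names the 9 factors, the targeted genes, up to 4 called genes of smallest p per related list, whole marker lists, and the 3 genes most like each called factor, of which 1 is not reported here. Further list members and single markers were named after their values were seen. The factors and the lists were chosen with earlier results of these data known. The scripts were tested on simulated data. Alternatives were DESeq2 1.42.0, limma-voom (limma 3.58.1), other scalings and filters, a replicate block, Y-linked expression as a covariate and leaving out each library. Some alternatives were added later, with the data known: using only the libraries with Y-linked expression, another gene length, and counts of related lists with the covariate or without a library.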

Additional observations from a re-analysis of the deposited data

How the results depend on the processing

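The 8 tested factors kept the sign of their log2 fold change under all alternatives, and Pax6 and Tfap2b also kept their calls. DESeq2 called 3966 genes and limma-voom 3511, against 3268, and both called 5 factors, as did the other scalings and filters. When 1 library was left out, 1948 to 3344 genes and 2 to 4 factors were called. Under these fits Runx1 ran from 0.45 to 0.64, Runx2 from 1.48 to 2.19 and Tfap2c from -0.50 to -0.38, each called only without 1 library (Control replicate 2 for Runx1, Control replicate 1 for Runx2 and Tfap2c). With Y-linked expression as a covariate 855 genes and 2 factors were called, and Runx1 (0.47), Runx2 (1.42) and Tfap2c (-0.44) were not. A fit of only the 4 libraries that expressed Y-linked genes was chosen with the data in view. In it the lone mutant is assumed to vary like the controls, and 597 genes and 2 factors were called, with Runx1 at 0.49, Runx2 at 1.41 and Tfap2c at -0.43. These values lie close to those of the covariate fit, whose group difference rests mainly on the same mutant library, Pea3 TKO replicate 3. Fits without a library have fewer samples, and the cause of lost calls was not tested. Replicate numbers are shared by the groups but do not pair the samples. The deviations of same-numbered samples from their group means correlated at 0.14, -0.06 and 0.05, and not every sample correlated best with its own number. A fit with a replicate block called 3191 genes and 5 factors. Of the 7 ratios 6 kept their direction under all alternatives, including the added gene length. The log2 ratio of Runx1 to Runx3, at -0.24, was 0.17 with 5 counts added, 0.0166 without Control replicate 1 and 1.07 without Pea3 TKO replicate 2. Runx3 could be fitted only without the filter, at a log2 fold change of 2.36 (edgeR adjusted p = 0.506), and DESeq2 gave it no adjusted p. With 3 libraries per group and few Runx2 counts, its interval is wide, and the data limit what can be said of Runx3, Barx2, Tfap2a and Cbfb to the intervals given.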
